A study of Mus musculus with 6 samples.

Results

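Glutathione peroxidases and peroxiredoxins were followed as 10 genes, 5 of each family (Gpx1, Gpx2, Gpx3, Gpx4, Gpx8, Prdx1, Prdx2, Prdx4, Prdx5 and Prdx6). They were chosen by name, with earlier results of these data known. All 10 were rows of both tables, among 24077 genes measured in single cells and 30828 genes measured in tissue sections. The uteri came from CD-1 mice that had received diethylstilbestrol (DES, a synthetic oestrogen) at 1 mg/kg/day, or corn oil alone (CO), by injection on days 1 to 5 after birth, and that were killed at 12 months of age. Each condition had 1 single-cell library, made from 2 pooled CO uteri or 4 pooled DES uteri, and 2 spatial sections (A and B), each from 1 mouse. CO mice were taken in oestrus because adult DES-exposed mice stay in it. Tissue blocks were screened for lumen and, in DES mice, for adenocarcinoma, and the study describes a large fold in section CO B and poorly resolved clusters in DES B.

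The single-cell table held 32387 CO cells and 16312 DES cells with a median of 6779 and 10153.5 unique molecular identifiers (UMIs, each a captured RNA molecule), and 180 cell barcodes occurred in both libraries. The authors' cell type names covered 12253 CO and 9701 DES cells, and stromal cells, myocytes, pericytes, endothelial cells and the cells named after Ctla2a reached 50 cells only in the CO library. Sections held 1357 to 1834 spots and 9117099 to 12506177 UMIs. Epithelial marker RNA was high in cells named epithelial (7 markers summing to 6000 CPM, counts per 1e6 UMIs, in CO and 4108 in DES). Cells named mesothelial carried more stromal than mesothelial marker RNA (17796 against 2343 CPM in CO, and 19031 against 2486 in DES), and the 67 CO cells named myeloid carried 4348 CPM of stromal against 2906 of myeloid markers. The names are kept here as labels.

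Both families remove peroxides. Glutathione peroxidases reduce hydrogen peroxide and lipid peroxides with electrons from glutathione. In 4 of the 5 followed here the reacting residue is selenocysteine, which is encoded by a TGA codon that would otherwise end translation. Peroxiredoxins reduce peroxides through a reactive cysteine that is recharged mainly by thioredoxin. Gpx1 is the widespread cytosolic enzyme, Gpx2 the form of mucosal epithelia, Gpx3 a secreted enzyme, Gpx4 the one that acts on lipid peroxides in membranes, and Gpx8 a membrane protein of the endoplasmic reticulum. Prdx1 and Prdx2 are mostly cytosolic, Prdx4 works in the endoplasmic reticulum beside the enzymes that form disulphide bonds, Prdx5 is found in mitochondria and peroxisomes, and Prdx6 uses glutathione and has a second activity as a phospholipase.

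The codon of the reacting residue separates the members by chemistry, and is shown here in capitals within 30 coding bases of the GENCODE transcript on mm10, 5′ to 3′ on the gene's own strand. Of the glutathione peroxidases, 4 carried an annotated selenocysteine TGA codon, and Gpx8 had a cysteine codon, TGC, at the same place.
Gpx1 (chr9:108338903-108340343, plus strand, codon 47, in exon 1 of 2): gtcgcgtctctcTGAggcaccacgatccgg
Gpx2 (chr12:76792333-76795554, minus strand, codon 40, in exon 1 of 2): gtggcgtcactcTGAggaacaactacccgg
Gpx3 (chr11:54902453-54910377, plus strand, codon 73, in exon 2 of 5): gtagccagctacTGAggtctgacagaccaa
Gpx4 (chr10:80047166-80056439, plus strand, codon 73, in exon 3 of 7): gtggcctcgcaaTGAggcaaaactgacgta
Gpx8 (chr13:113042753-113046410, minus strand, codon 79, in exon 2 of 3): gtggctagtgacTGCcgcttcacagacaag

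The peroxiredoxins are shown around the codon of the peroxidatic cysteine, the residue that meets the peroxide. Prdx1 and Prdx2 had 26 of the 30 bases in common, and each had 24 in common with Prdx4. Gpx1 and Gpx2 also had 24 in common.
Prdx1 (chr4:116685544-116700822, plus strand, codon 52, in exon 3 of 6): tttacttttgtgTGTcccacggagatcatt
Prdx2 (chr8:84969587-84974834, plus strand, codon 51, in exon 3 of 6): ttcacttttgttTGCcccacggagatcatc
Prdx4 (chrX:155323918-155340754, minus strand, codon 127, in exon 3 of 7): ttcacctttgtgTGTccaactgaaatcatc
Prdx5 (chr19:6906697-6910106, minus strand, codon 96, in exon 2 of 6): tttacacctggcTGTtctaagacccacctg
Prdx6 (chr1:161240112-161251219, minus strand, codon 47, in exon 2 of 5): tttaccccagtgTGCaccacagaacttggc

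Promoter windows from RefSeq (GRCm38.p6, 250 bases before to 50 after a start) matched 9 members, with 12 windows in all, and Prdx6 had no entry. The core of the antioxidant response element, the site of the stress factor Nrf2, was searched as TGACNNNGC on both strands. It was found in 1 member, Prdx1, starting 133 bases upstream of the RefSeq start, which differs from the GENCODE gene start given above, and in 12.4% of 32851 promoters. The match lies on the minus strand and is shown in capitals in plus-strand letters.
Prdx1 (chr4:116685456-116685485): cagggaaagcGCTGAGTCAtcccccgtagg
The full palindromic oestrogen response element was in 0 of the 9 members with a window and in 0.0700% of promoters. Its repeated unit GGTCA, which is part of the longer motif, was in the windows of Gpx2 and Gpx4 and in 40.5% of promoters. These are matches of letters in a short window only.

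The first question was which cells of the control uterus carried each gene. Levels are given as CPM, the share of all UMIs summed over the cells of a group, with 95% Poisson intervals that cover counting error only, and there was no replicate library against which to test them. In CO, 5 of the 10 members had their highest level in epithelial cells, namely Gpx1, Gpx2, Prdx1, Prdx4 and Prdx5. The share of all genes that were highest there was not computed, so no leaning of the families toward epithelium is read from this count. Gpx1 stood at 2096 CPM in epithelial cells and 2088 in myocytes, which did not differ beyond their intervals, and was lowest in endothelial cells, at 510. When each cell was weighted equally, Gpx1 was highest in myocytes and Prdx5 in lymphocytes, and the number with epithelium on top was 3.

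Of these 5, Gpx2 had the widest span over the control cell types, 18.6-fold, at 16.1 CPM in epithelial cells against 4.89 in lymphocytes and 0.866 in mesothelial cells. Prdx1 stood at 1633 CPM in epithelial cells and 646 in lymphocytes. Prdx4 ranged from 147 CPM in epithelial cells to 76.6 in myocytes. Prdx5 ranged from 385 CPM in epithelial cells to 149 in endothelial cells, and its epithelial level overlapped that of myeloid cells (375).

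The other members led elsewhere. Gpx3 reached 466 CPM in the cells named after Ctla2a, against 117 in epithelial cells as a whole and 23.6 in endothelial cells. Gpx4 was highest in stromal cells, at 776 CPM, and lowest in epithelial cells, at 235. Gpx8 was highest in mesothelial cells (282 CPM) and stromal cells (231) and lowest in endothelial cells (24.3). Prdx2 was highest in mesothelial cells at 521 CPM, followed by epithelial cells at 476, and lowest in lymphocytes at 163.7. Prdx6 ranged only from 227 CPM in lymphocytes, overlapping epithelial cells at 209, down to 108 in myocytes.

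In the DES library, Gpx4 stood at 927 CPM in the 136 cells of the DES-Myeloid-Lyz2hi type, more than in any other cell type of either library, and at 399 in the remaining myeloid cells. Gpx8 was at 14.4 CPM in those Lyz2hi cells and at 281 in DES mesothelial cells. Gpx3 reached 72.3 CPM in the Lyz2hi cells and 69.3 in mesothelial cells, but 0.954 in cells named epithelial. Prdx5 and Gpx1 were both highest in DES lymphocytes, at 748 and 1488 CPM.

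**Figure D1:**
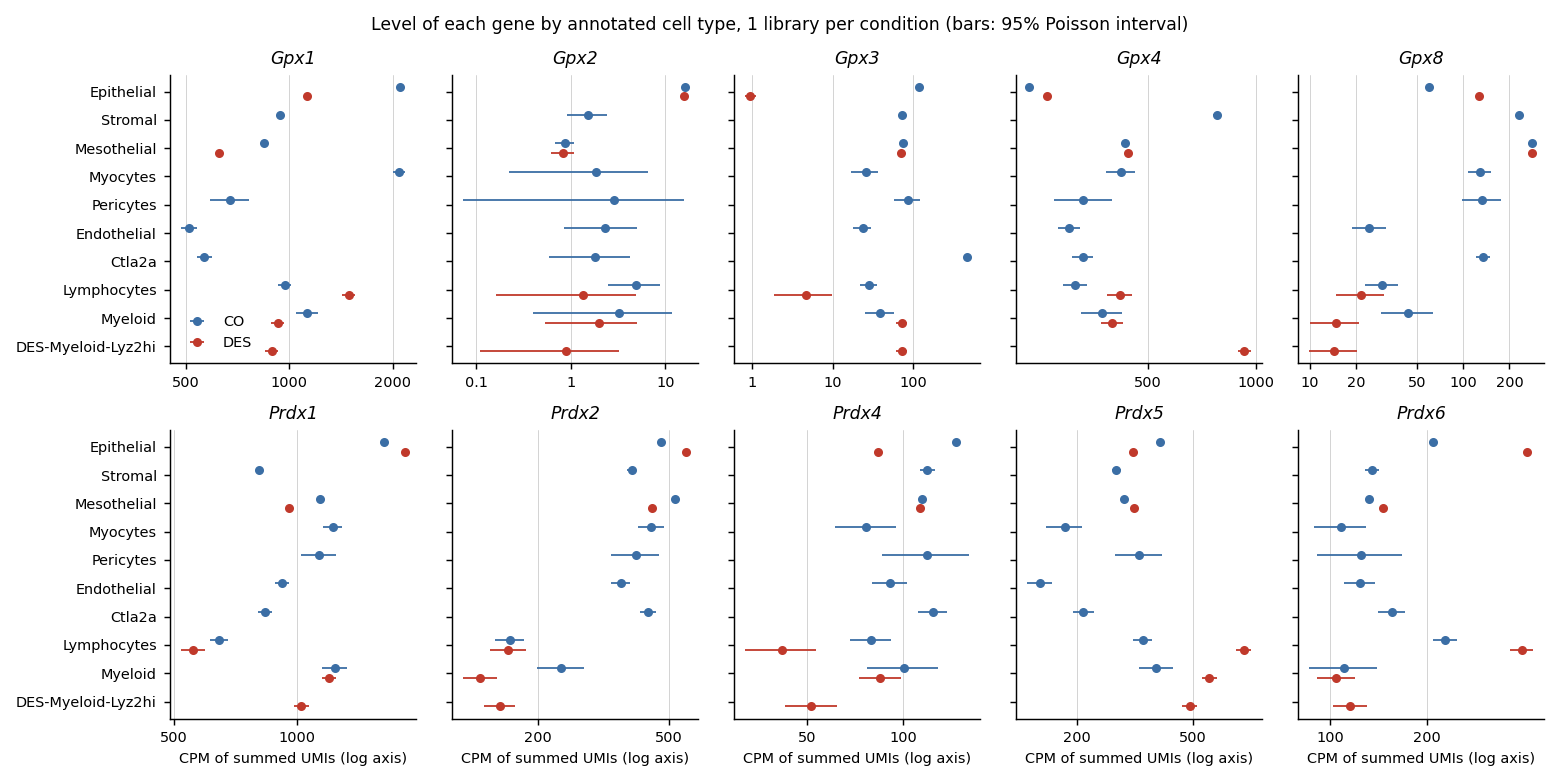
Level of each of the 10 genes (horizontal log axis, CPM of summed UMIs; the scale differs by panel) in each annotated cell type of the CO (blue) and DES (red) libraries, with 95% Poisson intervals as bars. In epithelial cells Gpx3 lies at 117 in CO and 0.954 in DES, and Gpx4 peaks in CO stromal cells (776) and in the DES-Myeloid-Lyz2hi cells (927).

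Within the control epithelium the study separates luminal clusters (2095 cells) from glandular clusters (417 cells), and 5 gland marker genes summed to 75.7 and 8416 CPM in them. Gpx3 was higher in the gland, with 944 CPM in glandular and 14.6 in luminal cells, a ratio of 64.9 (counting interval 60.7 to 69.3). The study lists Gpx3 among the gland genes by which it named glandular clusters in its joint clustering of these cells. It also reports Gpx3 as a gland marker with no expression in DES clusters. The values here describe the same cells and are no independent finding. After thinning every cell to 3000 UMIs, 79.8% of 415 glandular cells held a Gpx3 UMI (exact interval 75.6 to 83.5), against 4.87% of 2076 luminal cells (3.98 to 5.88). The unthinned shares were 97.1% and 31.4% at median depths of 17202 and 25654 UMIs. For comparison, 8.06% of thinned CO lymphocytes (median 4033 UMIs unthinned) held one, a share above the luminal one. Glandular cells held 11.1% of the CO epithelial UMIs but 89.0% of the Gpx3 UMIs.

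Gpx2 was also higher in the gland, at 63.0 against 9.89 CPM, and most of it came from cluster 13, where it reached 366 CPM in 62 cells. Gpx1 was reversed, at 538 CPM in glandular and 2322 in luminal cells, and its highest cluster was luminal cluster 2, at 3070. Gpx8 also stood lower in the gland, at 29.7 against 63.9 CPM. Gpx4 was somewhat higher there, at 315 against 222 CPM.

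The peroxiredoxins differed less between the epithelial compartments. Prdx4 was at 141 CPM in glandular and 149 in luminal cells, and Prdx6 at 225 and 202. Prdx1, Prdx2 and Prdx5 were lower in the gland, with ratios of 0.780, 0.641 and 0.641. Among single clusters, Prdx6 was highest in glandular cluster 13, at 483 CPM, and in cluster 12 at 431. Cluster 12, which belongs to neither compartment, also had the highest Prdx1 level, 2442 CPM. Clusters were formed on these same counts, so these levels are descriptions and were not tested.

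DES epithelial clusters did not divide along Gpx3. In all 16 of them Gpx3 lay between 0.306 and 2.34 CPM, below the 10.4 CPM of the lowest CO cluster of at least 50 cells. Gpx1 ranged from 651 CPM in cluster 8 to 2552 in cluster 5, and Prdx5 was also highest in cluster 5, at 634. Gpx2 was highest in cluster 8 at 72.8 CPM and lowest in cluster 1 at 1.26.

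Prdx6 reached 844 CPM in DES cluster 7, where Gpx8 and Prdx2 were highest too, at 165 and 647. Prdx4 was highest in DES cluster 13, at 169 CPM, and lowest in cluster 1, at 55.3. The basal cells found in the DES epithelium (integrated clusters 8 and 11, 351 and 257 cells) had less Prdx1 than any other DES epithelial cluster (991 and 1213 CPM) and also less Prdx4 (48.5 and 37.9). Their Prdx6 levels, 468 and 542 CPM, lay within the range of the other DES clusters.

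**Figure D2:**
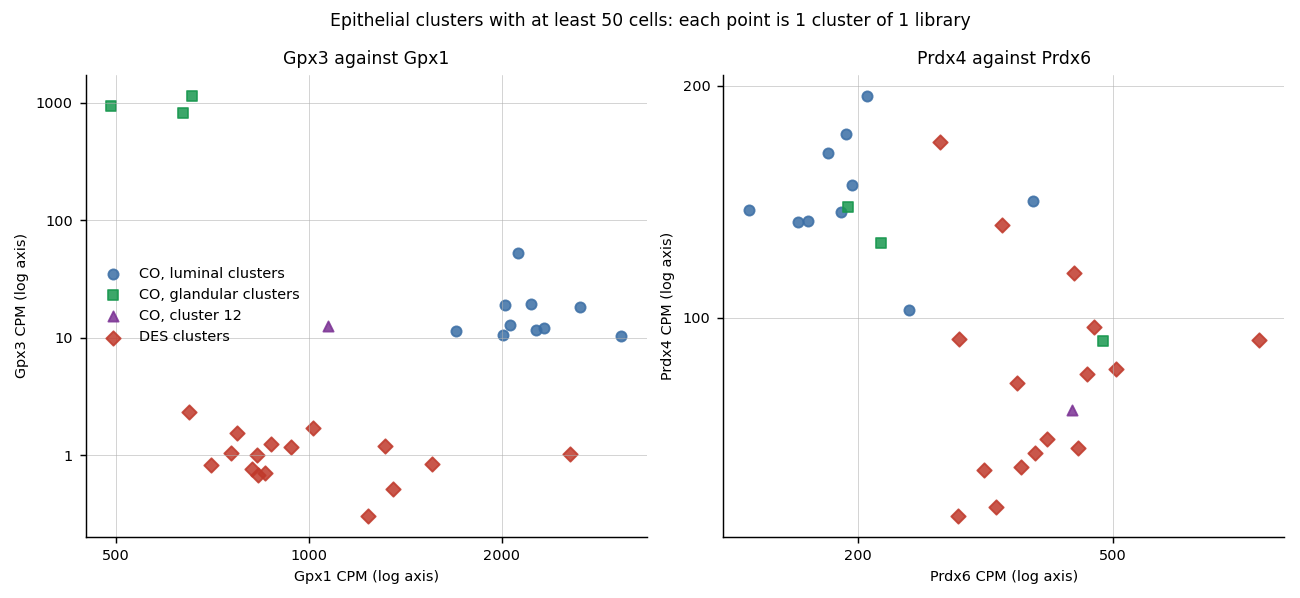
Epithelial clusters of at least 50 cells, with Gpx3 against Gpx1 on the left and Prdx4 against Prdx6 on the right (all axes CPM, log scale), drawn as circles for CO luminal, squares for CO glandular, a triangle for CO cluster 12 and diamonds for DES clusters. The DES clusters lie at 0.306 to 2.34 CPM of Gpx3, under all CO clusters, while their Gpx1 levels of 651 to 2552 CPM run across the CO range.

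To compare DES with CO within a cell type, the 2583 CO epithelial cells were set against the 4608 DES cells of the non-basal clusters. Gpx3 stood at 117 CPM in CO and 0.957 in DES, 123-fold lower, and Gpx8 was 2.13-fold higher, at 128 against 60.2 CPM (counting interval of the ratio 2.06 to 2.20). These were the 2 members past 2-fold, 1 in each direction, where 6.92% of 8414 genes at 10 CPM or more were at least 2-fold higher in DES and 7.71% at least 2-fold lower. With 1 library against 1 there was no test, and mice cannot be told apart from treatment. Gland markers summed to 997 CPM in the CO and 36.5 in the DES cells, and their part in the Gpx3 difference was not tested.

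Against CO luminal cells alone, a comparison added after the levels were seen, Gpx3 was at 14.6 CPM in CO and 0.957 in DES, both below the lymphocytes of the same library (28.03 and 4.70 CPM), so no change in luminal cells is read from it. In that comparison 2 members were past 2-fold lower, Gpx3 and Gpx1 (ratio 0.490), and 2 higher, Gpx8 (2.01) and Prdx6 (2.001), all but Gpx3 close to the line. Gpx2 turned to 1.196 (interval 1.096 to 1.308), where glandular cells had held 43.3% of its CO UMIs. Of all 8381 genes at 10 CPM or more, 7.83% were at least 2-fold lower and 8.4% at least 2-fold higher. After thinning, 0.263% of 4559 DES cells (0.136 to 0.459) held a Gpx3 UMI, and unthinned 3.23% did. In DES lymphocytes, with a median of 5599 UMIs against 24663.5, the thinned share was 1.41% and the unthinned 2.09%.

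Gpx1 stood at 2096 CPM in CO and 1137 in DES epithelium (ratio 0.542, interval 0.539 to 0.546). Prdx4 was at 147 and 86.6 CPM (0.590), whereas Prdx6 was at 209 and 403 (1.93, interval 1.90 to 1.96). The remaining members lay closer to 1, with Gpx2 at 0.736, Prdx5 at 0.826, Gpx4 at 1.10, Prdx1 at 1.15 and Prdx2 at 1.204. Gpx8 came to 1.99 when each cell was weighted equally, just under the 2-fold line. By the same weighting the Gpx3 ratio was 0.00537, against 0.00816 from summed UMIs. Over all 5255 DES cells named epithelial, basal cells included, Gpx2 came to a ratio of 0.986, and Gpx3 and Gpx8 were again the members past 2-fold (backgrounds 7.06% higher and 7.21% lower).

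Mesothelial cells, the other large population (6866 CO and 3837 DES cells), gave 0 members past 2-fold. Here 1.89% of 8814 genes were at least 2-fold higher and 2.33% at least 2-fold lower. Gpx1 was at 841 and 622 CPM (ratio 0.740), and Prdx1 and Prdx2 at ratios of 0.837 and 0.854. The other 7 members lay between 0.941 and 1.10, among them Gpx3 at 73.6 and 69.3 CPM and Gpx8 at 282 and 281, with Gpx2, Gpx4, Prdx4, Prdx5 and Prdx6.

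Lymphocytes (423 CO and 239 DES cells) had 1 member past 2-fold in each direction, with backgrounds of 6.73% higher and 5.05% lower. Prdx5 was at 336 and 748 CPM (ratio 2.22, interval 2.03 to 2.44), and Gpx3 at 28.03 and 4.70 CPM from 63 and 7 UMIs (0.168, interval 0.0648 to 0.366). Gpx1 had a ratio of 1.54, Prdx6 of 1.74 and Prdx4 of 0.526. Gpx4 was at 1.33, Prdx2 at 0.992, Prdx1 at 0.863 and Gpx8 at 0.732, and Gpx2 rested on 11 and 2 UMIs. The cells under this name were not alike in the 2 libraries, since plasma cell markers summed to 111910 CPM in CO and 9935 in DES, and gland markers to 204 and 32.2, and the part of either was not tested. Leaving the 20 most abundant genes out of the totals put 0 members past 2-fold higher and 2 past 2-fold lower, and turned the split of all genes from 569 higher and 427 lower to 376 and 743. Weighting cells equally gave 348 and 588, with 0 members higher and 1 lower.

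Myeloid cells (67 CO and 228 DES) had 1 member past 2-fold, Gpx8, at 43.8 and 14.7 CPM (ratio 0.336, interval 0.193 to 0.587), against a background of 22.8% lower and 4.89% higher. By the mean per cell its ratio was 0.526 and 0 members passed 2-fold, and with the 20 most abundant genes left out of the totals Gpx3 passed too, at 2.06. Prdx2 had a ratio of 0.567, Prdx5 of 1.52 and Gpx3 of 1.84, and Gpx1, Gpx4, Prdx1, Prdx4 and Prdx6 lay between 0.820 and 1.07. The stromal marker sum was 4348 CPM in the CO and 215 in the DES myeloid cells, and its part was not tested. Gpx2 was at 2 and 4 UMIs, too few for a direction.

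**Figure D3:**
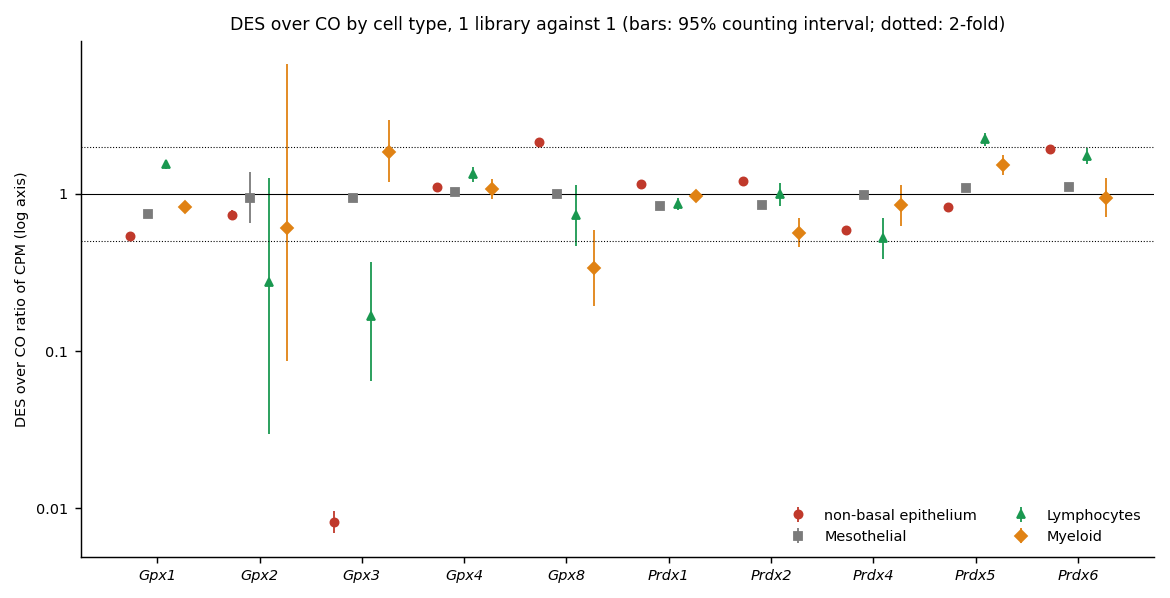
Ratio of DES to CO CPM (vertical log axis) for each gene in non-basal epithelium (red circles), mesothelial cells (grey squares), lymphocytes (green triangles) and myeloid cells (orange diamonds), 1 library against 1, with 95% counting intervals as bars and dotted lines at 2-fold. Gpx3 in epithelium, at 0.00816, lies far under every other point, and the mesothelial points stay between 0.740 and 1.10.

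Related genes that supply these enzymes were taken as a list of 42, of which 35 reached 10 CPM in epithelium. None was 2-fold higher in DES and 8 of the 35 were at least 2-fold lower, against 6.92% and 7.71% of all genes. The list was chosen with earlier results of these data known, so this count is a description and not a test. Over all cells named epithelial Gsr came to 0.501, just short of 2-fold, and the other 7 stayed past it. The lower genes included Gsr, which recharges glutathione (304 to 151 CPM, ratio 0.497), and Txnrd1, a thioredoxin reductase of the cytosol (190 to 94.7, ratio 0.498). The mitochondrial thioredoxin reductase Txnrd2 was not among them (11.6 to 12.2 CPM, ratio 1.046), nor was Txnrd3, under 10 CPM in both (ratio 1.318). The other lower genes included Glrx (0.310) and the haem oxygenase Hmox1 (0.302). Lrp8, a receptor for the selenium carrier, was at 0.389. Ero1l, P4hb and Pdia6, which form disulphide bonds in the endoplasmic reticulum as Prdx4 does, were at 0.274, 0.470 and 0.378. Against CO luminal cells alone Sepp1, the selenium carrier, was 2.39-fold higher in DES. There Gss (0.482), Nqo1 (0.457) and Sephs2 (0.498) were past 2-fold lower too, with backgrounds of 8.4% higher and 7.83% lower.

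Across 44 groups of cells (cell types and epithelial clusters of both libraries), P4hb and Pdia6 were also among the 3 genes whose log2 level followed Prdx4 most closely of 6848 genes, each with a Pearson correlation of 0.72, beside Ssr2 (0.72). The nearest gene to Gpx1 was Ass1 (0.81), to Gpx2 Slc44a3 (0.83), to Gpx3 Nucb2 (0.87), to Gpx4 Il11ra2 (0.82) and to Gpx8 Ube2r2 (0.86). Prdx1 lay nearest to Coa3 (0.90), Prdx2 to Fopnl (0.92), Prdx5 to Sin3b (0.68) and Prdx6 to Acpp (0.86). Among the members themselves Prdx2 followed both Prdx1 and Gpx8 (0.72 each), and Gpx3 and Prdx6 ran opposite (-0.58). The groups share 2 libraries and their clusters, so these are descriptions.

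The sections gave 2 mice per condition and, with them, a test. UMIs were summed over each section or spot class, and levels are given as CPM scaled by the trimmed mean of M values (TMM), a factor that sets most genes to no change. Without these factors the median gene was higher in DES by 0.20 (log2) in whole sections, 0.05 in stromal spots, 0.29 in epithelium-rich and 0.26 in muscle-rich spots. Differences are log2, DES minus CO, from the quasi-likelihood F test in edgeR, and p-values were adjusted over all genes by the Benjamini-Hochberg method. A spot mixes cell types, and in a bulk sum fewer cells of a type and less RNA per cell cannot be told apart. An exact permutation of the 4 section labels could not pass 0.05, and a fit without 1 section assumes that the lone section varies like the other group.

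In whole sections Prdx4 stood at 112 and 107 CPM in CO and at 55.8 and 50.9 in DES. Both DES sections lay at about the same distance below both CO sections, and the difference was -1.04 ± 0.16 (SE, adjusted p = 0.0365, edgeR). It was the 1 member of 10 that passed, against a background of 5.3% of 14098 genes (2.67% higher and 2.63% lower). The call did not survive leaving out either DES section (adjusted p = 0.32 without DES A and 0.38 without DES B), nor scaling by library totals alone (-0.83, adjusted p = 0.0584, edgeR). Without TMM factors 522 genes of all tested passed higher and 263 lower, against 376 and 371 with them.

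None of the other members passed in whole sections, and the median difference of the 10 was -0.13, against -0.01 over all genes. Prdx5 was at 345 and 258 CPM in CO and 491 and 598 in DES (0.85 ± 0.23, adjusted p = 0.107). In DESeq2 it passed (adjusted p = 0.0231), as did 1791 of 14098 genes, and without 1 section its difference ran from 0.66 to 1.08. Prdx6 was at 230 and 132 in CO and 288 and 289 in DES (0.67 ± 0.30, adjusted p = 0.255), and its difference ran from 0.32 to 1.13 without 1 section. Both had all DES above all CO sections, as did 28.6% of all genes.

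Gpx8 was at 135 and 133 CPM in CO and 95.2 and 97.3 in DES (-0.47 ± 0.15, adjusted p = 0.147), the opposite side from its ratio in single epithelial cells. Gpx3 was at 170 and 649 in CO and 168 and 85.7 in DES (-1.69 ± 0.71, adjusted p = 0.234), which came to -0.42 without section CO B. It came to -2.35 without CO A, and it passed in DESeq2 (adjusted p = 0.0349), as did 1791 of 14098 genes. With Prdx2 and Prdx4, these genes made 4 members with all DES below all CO sections, as for 27.8% of genes. Without TMM factors this held for Gpx8 and Prdx4 only. Gpx3 then overlapped, and Prdx2 had both DES sections (510 and 528 CPM) above both CO sections (495 and 480). Gpx1 overlapped widely, at 5815 and 3633 CPM in CO and 3128 and 5581 in DES, and Gpx2, Gpx4 and Prdx1 overlapped as well.

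The sections also differed in their makeup. Muscle markers summed to 9560 and 10709 CPM in CO and 2135 and 2334 in DES, and stromal markers to 2452 and 2453 in CO and 1140 and 762 in DES. Plasma cell markers ran the other way, at 225 and 474 in CO and 3249 and 6098 in DES, and basal cell markers at 3.36 and 160 against 9526 and 5644. The part of this makeup in the whole-section values was not tested.

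**Figure D4:**
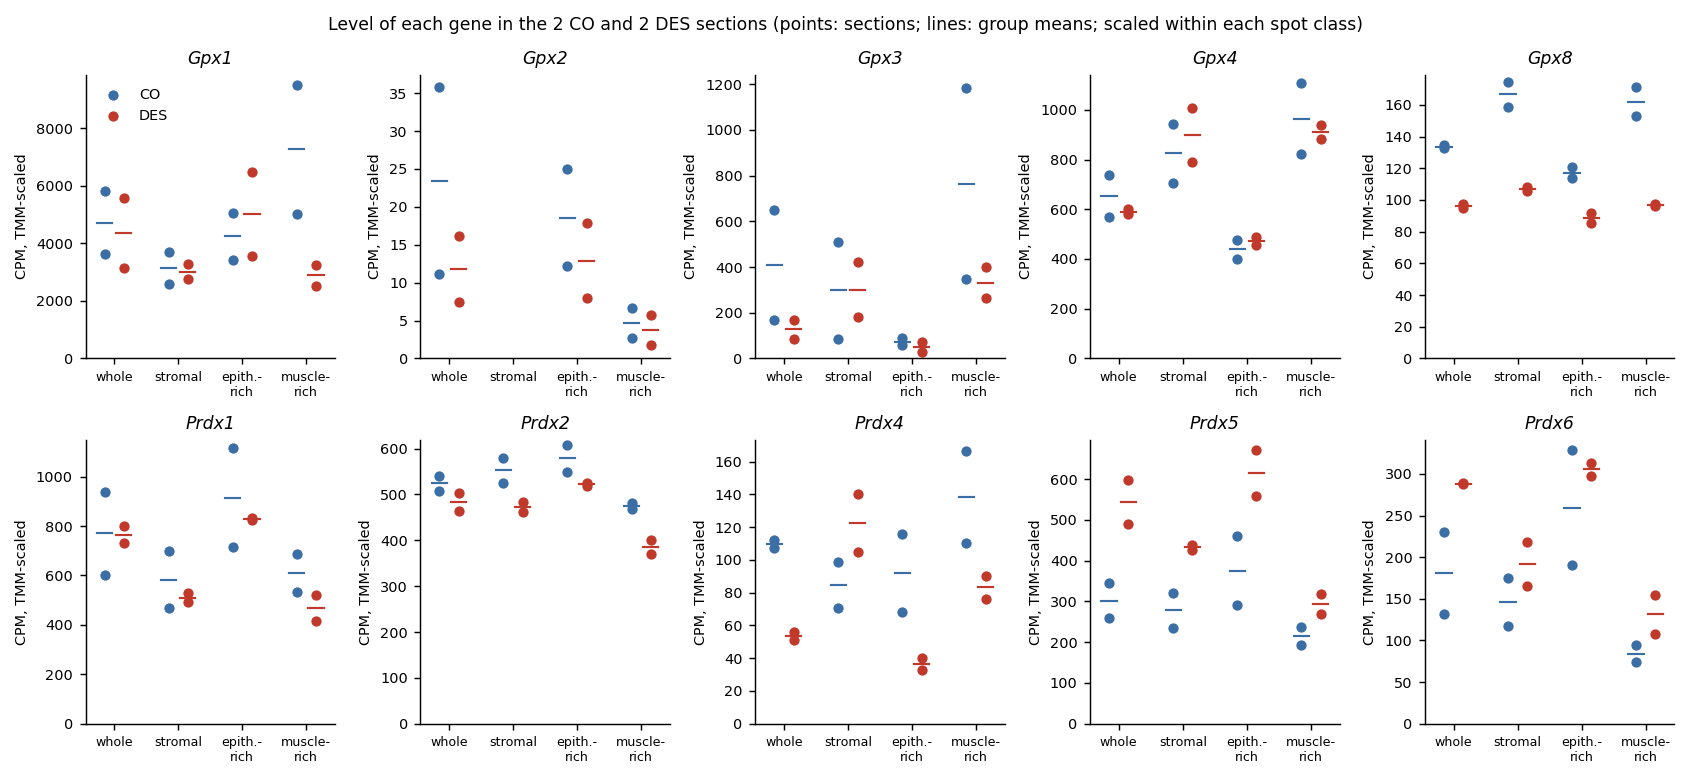
TMM-scaled CPM of each gene (vertical linear axis from 0, scaled within each spot class) in the 2 CO (blue) and 2 DES (red) sections, for whole sections, stromal, epithelium-rich and muscle-rich spots, with points for sections and short lines for group means. Prdx4 lies at 50.9 to 55.8 in DES and 107 to 112 in CO whole sections, and Gpx1 in muscle-rich spots at 2534 and 3249 in DES against 5008 and 9523 in CO. Gpx2 was too low to be tested in stromal spots.

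Stromal spots, the clusters that the study assigns to stroma (101 and 188 spots in CO, 211 and 132 in DES), tested a compartment that had 1 DES cell under its name in the single-cell table. Here 0 of the 9 members with enough counts passed in edgeR or in DESeq2, and 0 had an unadjusted edgeR p under 0.05. Of all 8914 genes 1.47% passed in edgeR, 0.796% higher and 0.673% lower. Prdx4 was on the other side than in whole sections, at 98.5 and 70.7 CPM in CO and 105 and 140 in DES (0.52 ± 0.34, adjusted p = 0.578). When stromal spots were picked by markers instead, it came to -0.51. Gpx8 was at 175 and 159 CPM in CO and 108 and 106 in DES (-0.64 ± 0.29, adjusted p = 0.391), and Prdx5 at 322 and 234 in CO and 427 and 439 in DES (0.64 ± 0.31, adjusted p = 0.423). Gpx3 ran from 83.6 to 511 CPM within CO and from 181 to 422 within DES, and its difference of 0.027 came to -1.28 with spots picked by markers and to between -0.77 and 1.88 with 1 section left out. Gpx8 and Prdx2 had all DES below all CO sections, as did 20.9% of genes, and Prdx4 and Prdx5 lay above, as did 22.6%. Among the DES stromal spots 31 and 80 also counted as muscle-rich, against 0 in CO, and plasma cell markers summed to 14.3 and 2002 CPM in CO and to 7866 and 38368 in DES. Basal markers summed to 0 and 90.0 CPM in CO and to 7058 and 1998 in DES, and stromal markers to 5452 and 4056 against 2890 and 1923. The part of these was not tested. Gpx1 (-0.062), Gpx4 (0.12), Prdx1 (-0.19), Prdx2 (-0.23), Gpx3 and Prdx6 (0.41) did not pass either.

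Epithelium-rich spots were the top 25% of a section by epithelial markers, less those in the top 25% by muscle markers. In these spots 0 of 10 members passed, where 6.43% of 12092 genes did (3.99% higher and 2.44% lower). Prdx4 came nearest, at 116 and 68.0 CPM in CO and 39.97 and 32.7 in DES (-1.34 ± 0.31, unadjusted p = 0.00641, adjusted p = 0.0699, edgeR). In DESeq2 it passed (adjusted p = 0.0120), as did 1281 of 12092 genes, and without 1 section its difference ran from -1.66 to -0.91. Its single-cell ratio in epithelium was also under 1. Prdx5 was at 460 and 291 in CO and 558 and 672 in DES (0.71 ± 0.28, adjusted p = 0.192), although its single-cell ratio was 0.826. Gpx3 stayed low in all 4 sections, at 58.1 and 89.1 in CO and 71.7 and 26.7 in DES (-0.58 ± 0.49, adjusted p = 0.513, edgeR). Its difference ran from -1.45 without DES A to -0.032 without DES B. Gland markers summed to 20.1 and 121 CPM in the CO and 35.4 and 69.1 in the DES epithelium-rich spots. In CO A, cluster 5, where the study places glandular epithelium, held 188 CPM of Gpx3 and 241 of Gpx2 before TMM scaling. The part of gland content in these values was not tested.

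Without TMM factors the calls in epithelium-rich spots split as 905 higher and 203 lower, against 482 and 295 with them. Basal markers summed to 4.97 and 183 CPM in the CO and to 9183 and 6083 in the DES epithelium-rich spots. Plasma cell markers summed to 15.3 and 177 in CO and 1180 and 713 in DES, and myeloid markers to 121 and 207 against 1463 and 638. Stromal markers were at 1205 and 895 against 539 and 373. The part of these was not tested. For Gpx1 the epithelium-rich values were 5059 and 3434 in CO and 3552 and 6495 in DES, with no common direction. Gpx8 was at 114 and 121 CPM in CO and 85.7 and 92.0 in DES and did not pass (-0.40 ± 0.18, adjusted p = 0.234). It was 1 of 3 members, with Prdx2 and Prdx4, that had all DES below all CO sections, as did 28.5% of genes, and Prdx5 lay above, as did 29.3%. Without TMM factors Gpx8 overlapped and Prdx2 lay above, at 585 and 571 CPM in DES and 533 and 503 in CO, as did Gpx4 and Prdx6. The differences of Gpx2 (-0.53), Gpx4 (0.10), Prdx1 (-0.14), Prdx2 (-0.15) and Prdx6 (0.24) did not pass. With 1 section left out, the differences ran from 0.43 to 1.08 for Prdx5 and from -0.091 to 0.68 for Prdx6.

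Muscle-rich spots, defined the other way round, also gave 0 of 10 members against 4.15% of 10975 genes (2.61% higher and 1.55% lower). Gpx1 came nearest, at 9523 and 5008 CPM in CO and 2534 and 3249 in DES (-1.33 ± 0.31, unadjusted p = 0.00328, adjusted p = 0.0624, edgeR). All DES sections were below all CO sections, and its difference ran from -1.73 to -0.80 without 1 section. Gpx1 passed in DESeq2 (adjusted p = 0.00732), as did 494 of 10975 genes. With no filter on low counts it also passed (adjusted p = 5.3e-08, edgeR), in a fit that called 1406 of 17087 genes. Gpx8 was at 171 and 153 in CO and 96.0 and 97.7 in DES (-0.74 ± 0.22, adjusted p = 0.115). In this class 5 members had all DES below all CO sections, as did 23.8% of genes, and Prdx5 and Prdx6 lay above, as did 25.2%. Of the 5, Prdx1 and Prdx2 overlapped without TMM factors. The differences of Gpx2 (-0.24), Gpx3 (-1.21), Gpx4 (-0.082), Prdx1 (-0.39), Prdx2 (-0.30), Prdx4 (-0.74), Prdx5 (0.45) and Prdx6 (0.65) did not pass. For Gpx3 the difference was -0.074 without CO B and -1.85 without CO A, and it passed with no filter (adjusted p = 8.4e-05, edgeR). With 1 section left out, the differences ran from -1.01 to -0.42 for Prdx4, from 0.37 to 0.88 for Prdx6 and from -0.83 to -0.67 for Gpx8.

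These spots were less muscular in DES. Muscle markers summed to 33796 and 35091 CPM in the CO and 14966 and 12244 in the DES muscle-rich spots, and plasma cell markers to 104 and 75.2 against 7965 and 16198. Basal markers summed to 1.51 and 8.45 CPM in CO and 2856 and 2437 in DES, and epithelial markers to 397 and 347 against 873 and 1320. Their part in the Gpx1 values was not tested. Without TMM factors the split of calls was 480 higher and 105 lower, against 286 and 170.

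The contrast between epithelium-rich and muscle-rich spots of the same section had the section as a block. It placed 7 of the 10 members, 4 higher in epithelium and 3 higher in muscle, where 47.9% of 12753 genes passed (3189 genes higher in epithelium, and 2924, or 22.9%, lower). Gpx3 was the most one-sided toward muscle, with 55.1, 84.2, 67.9 and 25.3 CPM in epithelium-rich spots of CO A, CO B, DES A and DES B, and 368, 1278, 409 and 274 in their muscle-rich spots (log2 epithelium minus muscle -3.17 ± 0.27, adjusted p = 0.000362). Muscle-rich spots also hold stroma, with 1674 to 3302 CPM of stromal markers. In single CO cells Gpx3 was at 25.5 CPM in myocytes and 71.7 in stromal cells, both below the muscle-rich spots. The CO cells named after Ctla2a, at 466 CPM, were above the muscle-rich spots of CO A, DES A and DES B and below those of CO B. The part of the stroma or of these cells was not tested. The spot cluster with the most Gpx3 had more muscle than stromal marker RNA for CO A (cluster 6, 591 CPM) and DES A (cluster 7, 625 CPM), and more stromal than muscle marker RNA for CO B (cluster 7, 1864 CPM) and DES B (cluster 9, 1672 CPM).

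Gpx4 (-1.19 ± 0.17, adjusted p = 0.00166, edgeR) and Prdx4 (-1.05 ± 0.26, adjusted p = 0.0149, edgeR) were also lower in epithelium-rich spots. In single CO cells Prdx4 ran the other way, at 147 CPM in epithelial cells and 76.6 in myocytes. Plasma cell markers summed to 7965 and 16198 CPM in the DES muscle-rich and 1180 and 713 in the DES epithelium-rich spots. In CO these sums were 104 and 75.2 against 15.3 and 177. Their part was not tested. Prdx4 was nearly even in CO A (110 and 117 CPM) and uneven in the other sections, and its call was lost without CO B (adjusted p = 0.0615) or DES A (0.0527). Gpx8 had the same direction in 4 of 4 sections but missed the threshold (-0.45 ± 0.16, adjusted p = 0.0531), and it passed with DESeq2's size factors in edgeR (0.0389).

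On the epithelial side, Gpx2 was at 23.7, 11.5, 7.51 and 16.9 CPM in epithelium-rich and 7.01, 2.91, 1.87 and 5.96 in muscle-rich spots, in the same order of sections (1.76 ± 0.27, adjusted p = 0.00227). Prdx6 was at 312, 180, 296 and 282 against 99.96, 79.5, 110 and 160 (1.26 ± 0.19, adjusted p = 0.00204). Both were higher in epithelium-rich spots in 4 of 4 sections. Prdx5 (0.77 ± 0.21, adjusted p = 0.0215) and Prdx1 (0.55 ± 0.18, adjusted p = 0.0401) passed less firmly. Both lost the call without CO A, without DES A or without DES B (adjusted p from 0.0770 to 0.200). Prdx2 did not pass (0.21 ± 0.16, adjusted p = 0.301). Without TMM factors 3948 genes passed higher and 2549 lower, against 3189 and 2924.

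Gpx1 was the exception, with an average difference of -0.14 ± 0.36 (adjusted p = 0.763). Its CPM in epithelium-rich against muscle-rich spots was 4802 against 10115 for CO A, 3245 against 5401 for CO B, 3361 against 2592 for DES A and 6146 against 3370 for DES B. Muscle was thus the higher side in both CO sections and epithelium in both DES sections. The test of that change of difference, an interaction of spot class with treatment, gave 1.53 ± 0.28 (adjusted p = 0.0133, edgeR), and Gpx1 was the 1 member of 10 to pass it, against 7.47% of genes (3.9% upward and 3.58% downward). Those of Gpx2, Gpx3, Gpx4, Gpx8 and all 5 peroxiredoxins lay between -0.54 and 0.40 and did not pass. Gpx3 came to 0.83 and Prdx5 to 0.71 without CO A, and Prdx4 to -1.31 and Prdx6 to -0.62 without CO B. The Gpx1 call was lost without DES A (1.79, adjusted p = 0.0833) or DES B (1.29, adjusted p = 0.140). The muscle marker sums above moved with it, and their part was not tested.

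**Figure D5:**
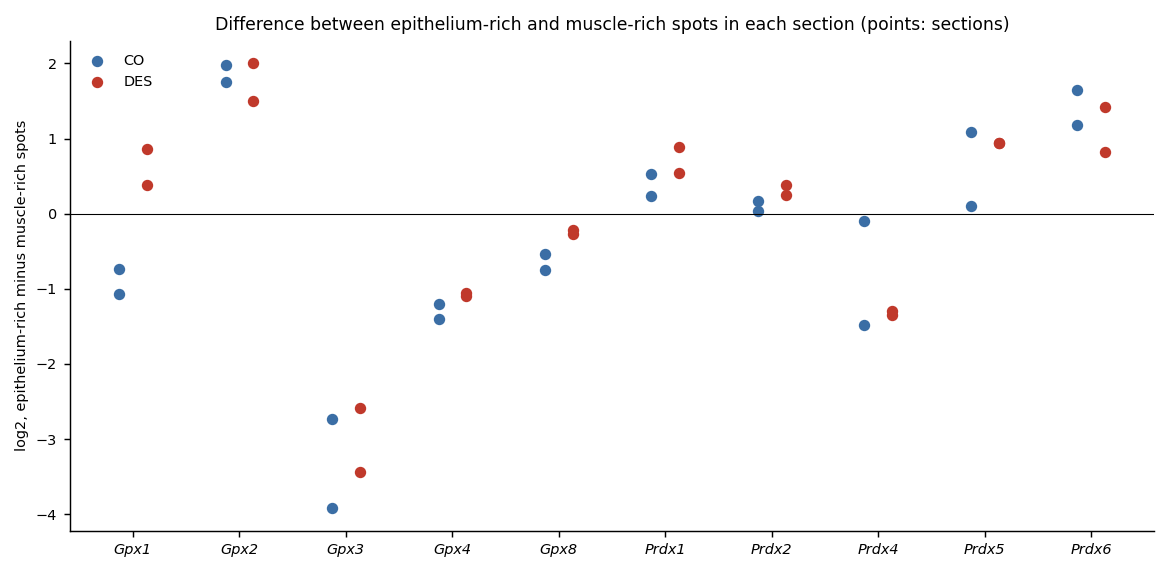
Log2 difference between epithelium-rich and muscle-rich spots of the same section (vertical axis, above 0 where epithelium is higher) for each gene, with a point for each CO (blue) and DES (red) section. Gpx1 lies at -1.07 and -0.73 in the CO and at 0.38 and 0.87 in the DES sections. On this TMM scale the other 9 genes keep 1 sign in all 4 sections, and the share of all genes that do so was not computed. Without TMM factors Prdx4 in CO A was at 101.7 CPM in epithelium-rich and 101.1 in muscle-rich spots, which turns its sign there.

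Of the 42 related genes, 40 could be tested in this contrast, 12 were higher in epithelium-rich and 7 in muscle-rich spots, a share near the 47.9% of all genes. The epithelial side held Gsr (2.48 ± 0.37, adjusted p = 0.00217), Gclm, which helps to make glutathione (1.205 ± 0.17, adjusted p = 0.00174), and Nfe2l2, which encodes Nrf2 (1.21 ± 0.17, adjusted p = 0.00184). The muscle side held Sepp1, the plasma carrier of selenium (-2.63 ± 0.18, adjusted p = 0.000201), and catalase, Cat (-0.87 ± 0.16, adjusted p = 0.00484). Slc7a11, Txnrd1, Lrp8, Sephs2, Secisbp2, Sepsecs, Ero1l, Pdia3 and Pdia6 were also higher in epithelium-rich spots (0.81 to 3.45), and Gpx7, Txn2, Sod1, Sod3 and Pstk in muscle-rich spots (-0.42 to -2.32). Between DES and CO, 1 of 40 passed in whole sections and 2 of 40 in epithelium-rich spots, where 5.3% and 6.43% of all genes did. Gclm was higher in whole sections (1.01 ± 0.17, adjusted p = 0.0443), and in epithelium-rich spots Gclc, the catalytic partner of Gclm, was higher (1.15 ± 0.23, adjusted p = 0.0486) and Sephs2, which makes the selenium donor for selenocysteine, lower (-1.39 ± 0.25, adjusted p = 0.0429). In stromal and muscle-rich spots 0 of 36 and 0 of 38 passed, where 1.47% and 4.15% of all genes did.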

How the data were processed

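UMI counts per gene were deposited by the authors as raw counts, for single cells (Cell Ranger 3.0.1) and for spots (Space Ranger 1.2.2), with mm10 as genome and bcl2fastq 2.20.0.422 per the labels. The authors describe removing likely doublets, whether before deposit is not given in the sources used here, and no doublet call was made on the deposited table. Cell types, epithelial clusters and spot clusters are the authors' annotation, and 350 annotated cells had no counts. Members, related genes and marker lists were chosen with earlier results of these data known. All 10 members are named in every main comparison between DES and CO and between spot classes, while levels within the DES library are given for some. Related genes are named mainly where they passed a test or 2-fold.

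UMIs were summed per library and cell group (at least 50 cells) and given as CPM with exact Poisson intervals, ratios with exact conditional intervals, and shares of cells after thinning to 3000 UMIs with Clopper-Pearson intervals. PCR duplicates are collapsed by UMIs, and intervals cover counting error only. Section sums were tested with edgeR 4.0.16 in R 4.3.3 (quasi-likelihood, filterByExpr, TMM) at an adjusted p of 0.05, with DESeq2 1.42.0 as an alternative. Scripts were tested on simulated counts with 200 genes changed. Of 4-fold changes, the DES against CO tests recovered 82% in whole sections, 66% in stromal, 67% in epithelium-rich and 82% in muscle-rich spots. Of 16-fold changes they recovered 97%, 95%, 95% and 100%, in the same order. False calls numbered 23, 3, 18 and 23. In whole sections, epithelium-rich and muscle-rich spots these were a larger share of the simulated calls than the threshold of 0.05 allows. Scaling by library totals and the comparison with CO luminal cells were added after the data were seen. Reads of Prdx6 and its near copy Prdx6b, and of Gpx4 and Prdx1 and their pseudogenes, may have been split.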

Additional observations from a re-analysis of the deposited data

Results flagged for a closer look

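The difference between epithelium-rich and muscle-rich spots differed between DES and CO for Gpx1 by 1.53 (log2, adjusted p = 0.0133, edgeR's quasi-likelihood test of the interaction), with all CO sections on the muscle side and all DES sections on the epithelial side. The same test passed for 3 related genes, with -1.64 for Gsr (adjusted p = 0.0141), -2.01 for Txnrd1 (adjusted p = 0.00627) and 1.62 for Pstk, a kinase of selenocysteine synthesis (adjusted p = 0.0173). Of all 12753 genes, 7.47% passed. The Gpx1 call was lost without DES A or without DES B, and such fits are not given here for the other 3 genes. Averaged over sections, Gsr and Txnrd1 lay on the epithelial and Pstk on the muscle side, so their differences ran against that contrast. Muscle-rich spots had less muscle and more epithelial marker RNA in DES than in CO. The part of this makeup in these differences was not tested.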

How the results depend on the processing

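With 2 sections a condition, calls turned on single sections: leaving 1 out put the genes called at 3 to 2819 in whole sections, 40 to 357 in stromal, 125 to 3195 in epithelium-rich and 67 to 1861 in muscle-rich spots, 4376 to 5073 between the spot classes and 293 to 2394 in their interaction. The causes of these and the following changes were not tested. DESeq2 called 1791 genes in whole sections (747 in edgeR), 1281 in epithelium-rich spots (777) and 614 in the interaction (953). With no filter 714 were called in stromal spots (131), 1406 in muscle-rich spots (456) and 1501 in the interaction. Muscle-rich spots gave 100 calls at the top 15% of spots and 847 at the top 40%, and the interaction 389 at the top 15%. Section letters were not labelled as pairs, and same-letter deviations correlated at -0.04, 0.10, 0.03 and -0.05 in whole, stromal, epithelium-rich and muscle-rich sums. A replicate block on the letter called 527, 453, 752 and 486 genes. Under it Prdx1 in whole sections came to 0.023, Prdx4 lost its whole-section call (adjusted p = 0.0752, edgeR) and gained one in epithelium-rich spots (0.0438, edgeR). In single cells, 3 members in place of 5 were highest in epithelium by the mean per cell. The members past 2-fold in non-basal epithelium, 2 as reported, were 1 by the mean per cell and 4 against CO luminal cells, where 8.4% of all genes were past 2-fold higher and 7.83% lower.

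Of the members' section results under alternatives, 506 kept direction and side of the threshold, 27 passed newly, 15 no longer passed and 49 changed sign, none of which had passed as reported. Without TMM factors the log2 differences turned to 0.086 for Gpx1, 0.060 for Gpx4, 0.20 for Prdx1 and 0.091 for Prdx2 in whole sections, 0.17 for Prdx1 and 0.16 for Prdx2 in epithelium-rich spots, 0.012 for Gpx2 and 0.19 for Gpx4 in muscle-rich spots, and 0.013 for Gpx1 between spot classes. In stromal spots Gpx3 came to -0.0015 in DESeq2, and with spots picked by markers Gpx3 came to -1.28, Gpx4 to -0.075 and Prdx4 to -0.51. With other shares of spots, Gpx2 (0.21, top 15%) and Gpx4 (-0.0055, top 40%) turned in epithelium-rich spots, Gpx2 (0.16, top 40%) and Gpx4 (0.013, top 15%) in muscle-rich spots, and Gpx2 (1.29, top 15%), Prdx6 (0.013, top 15%) and Gpx3 (-0.13, top 40%) in the interaction.

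Leaving out 1 section also turned signs. In whole sections the range was -0.62 to 0.26 for Gpx1, -1.67 to 0.086 for Gpx2, -0.32 to 0.048 for Gpx4 and -0.30 to 0.34 for Prdx1. In stromal spots it was -0.29 to 0.19 for Gpx1, -0.77 to 1.88 for Gpx3, -0.10 to 0.35 for Gpx4 and -0.44 to 0.091 for Prdx1. In epithelium-rich spots it was -0.25 to 0.62 for Gpx1, -1.22 to 0.080 for Gpx2, -0.020 to 0.24 for Gpx4, -0.42 to 0.21 for Prdx1 and -0.091 to 0.68 for Prdx6. In muscle-rich spots it was -1.32 to 0.30 for Gpx2 and -0.29 to 0.14 for Gpx4. Between spot classes it was -0.51 to 0.14 for Gpx1. In the interaction it was -0.47 to 0.16 for Gpx2, -0.30 to 0.83 for Gpx3, -1.31 to 0.030 for Prdx4, -0.22 to 0.71 for Prdx5 and -0.62 to 0.021 for Prdx6.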
